A study of Homo sapiens with 15 samples.

Results

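The 53 genes described here encode proteins that copy DNA, from the choice of replication origins to the joining of new strands, together with enzymes that make deoxynucleotides and the transcription factor E2F1. They were chosen by gene symbol, and each symbol was found in both deposited expression tables, which makes 53 of the 20468 genes in each table. The study measured RNA by sequencing in the human multiple myeloma cell lines MM.1S and RPMI8226, both established lines, to ask how a stromal line changes gene expression in myeloma cells. Cells were kept for 48 h alone (MONO), in the upper transwell above HS5 cells so that soluble factors but not cells could pass (TSW), or in the lower chamber together with HS5 cells (CO). HS5 is an established human bone marrow stromal line. The myeloma cells were sorted as CD90-CD38+ cells before RNA isolation, and the authors noted a small remainder of HS5 cells among those sorted from the lower chamber. MM.1S had 3 libraries per condition and RPMI8226 had 2, so there were 15 libraries in 6 groups. The paper reads TSW against MONO as the effect of soluble factors, which may include exosomes, and CO against TSW as that of adhesion. CO against MONO holds both. Wells with HS5 also held myeloma cells in both compartments, each with its own medium, so they differed from MONO in cell number and volume too. These differences cannot be told apart from the effect of HS5 here.

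Each round of DNA replication starts with the loading of the MCM helicase at origins by ORC, CDC6 and CDT1, goes on with the firing of these origins through CDC45 and GINS, and is completed by DNA polymerases, a sliding clamp and ligase. Ribonucleotide reductase, thymidylate synthase and thymidine kinase supply the deoxynucleotides. Many of these genes are transcribed mainly around the start of S phase under E2F factors, which the RB family holds back, and their RNA is widely read as a sign of cycling cells in myeloma and other tumours.

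Levels are given as RPKM, the read pairs on a gene divided by the length of its exons and by the read pairs on all genes in the library, so levels of different genes can be set beside each other. Library depth, worked out from the deposited values, ran from 9008977 read pairs (MM.1S MONO replicate 1) to 19050772 read pairs (MM.1S MONO replicate 2), and a read pair on a gene of 2 kb stood for 0.0555 RPKM in the shallowest library and 0.02625 RPKM in the deepest. In the paper's list of library statistics, the column of informative pairs has RPMI8226 CO replicate 2 as deepest and gives MM.1S MONO replicate 2 fewer pairs than the values did, the same number as RPMI8226 MONO replicate 2. Fold changes are differences in the mean of log2(RPKM + 1), here called log2 fold changes, so that -1 means RPKM + 1 fell to 0.5 of its level. They were tested with limma, a linear model that shares information on spread between genes, over every gene with a mean of at least 1 RPKM in the line: 10153 genes in MM.1S, 10319 in RPMI8226 and 9397 in both lines. All 53 genes were among those tested. A gene is called, or said to have changed, when its p, adjusted by the Benjamini-Hochberg method over all genes tested, was under 0.05, and SE is the standard error of its fold change. The labels do not say whether replicates were separate cultures, so these p values may measure technical spread. The comparisons with MONO share the MONO libraries, so they are not independent of each other.

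MM.1S MONO replicate 1, the shallowest library, stood apart from the other MONO libraries of its line. Its mean Euclidean distance to them on log2(RPKM + 1) was 43.8, against 34.9 and 35.0 for MM.1S MONO replicates 2 and 3. For this reason, each MM.1S count that changed without this library is given both ways or with the genes that changed. This holds for counts of the 53 genes, or of a list beside them, called by adjusted p alone. Shares of all genes stand for the fit with it unless said otherwise. Without it they were larger: for TSW vs MONO 16.8% were lower and 16.97% higher, for CO vs MONO 17.9% and 18.2%, and for CO vs TSW 0.157% and 0.581%.

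In MM.1S, 16 of the 53 genes were lower in TSW than in MONO (30.2%), beside 12.9% of all genes tested. None was higher with limma, although 14.4% of all genes were, and 27 of the 53 genes had an unadjusted p under 0.05. Only 3 (CLSPN, MCM4 and MCM3) were lower by over 1.5-fold, near the 4.16% of all genes that passed this rule. The median log2 fold change of the 53 genes was -0.21, beside 0.01 for all genes tested. This count depended on single libraries. It was 4 without TSW replicate 2 (7.40% of all genes were lower in that fit), 7 without TSW replicate 1 (8.19%) and 9 without TSW replicate 3 (7.61%). Without the outlying MONO replicate 1 it was 20 (16.8%), and without MONO replicate 3 it was 19 (15.5%), with 3 of the 53 genes (ORC2, ORC4 and RRM2, 5.66%) higher, beside 17.4% of all genes. Less RNA per cell and fewer cells in S phase cannot be told apart in these bulk libraries.

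Between CO and MONO in MM.1S, 30 of the 53 genes were lower (15.05% of all genes tested) and 1, ORC2, was higher (16.2% of all genes). Of the 30, 8 were lower by over 1.5-fold, beside 4.65% of all genes. The median was -0.34, beside 0.01 over all genes. CO replicate 1 weighed most on this count, which was 14 without it (8.83% of all genes lower). Left out instead, other libraries gave 18 without CO replicate 3 (9.12%) and 20 without MONO replicate 2 (11.7%). Without MONO replicate 1 it was 32 (17.9%). The call of ORC2 was lost without any of the 3 CO libraries, which left 0 genes higher.

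Direct comparison of CO with TSW, the conditions that differ in contact with HS5, gave 0 of 53 genes lower in MM.1S (0.0492% of all genes tested) and 0 higher (0.384%) with limma. By the 1.5-fold rule 0 were lower (0.0394%). At an unadjusted p under 0.05 there were 2 of the 53 genes (RRM2 and CDC45) and 450 of all genes. The fold change was nevertheless below 0 for 47 of the 53 genes, beside 5110 of the 10153 genes tested. The median of the 53 genes was -0.12, beside -0.0008 over all genes, and it was -0.05 without CO replicate 1.

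Counts of genes lower were larger in RPMI8226 in all 3 comparisons, in a line where many more of all genes changed. Between TSW and MONO, 47 of the 53 genes were lower (38.04% of all genes tested), 37 of them by over 1.5-fold (17.9%), and 2 were higher (29.03%), TK1 and RPA3. The median was -0.81, beside -0.08 over all genes. In every fit that left out 1 of the 6 libraries, TK1 alone stayed higher. Between CO and MONO, 52 of the 53 genes were lower (41.7% of all genes), 47 of them by over 1.5-fold (22.9%), and with limma 0 were higher (30.3%). At an unadjusted p under 0.05 the count was 52 as well. ORC4 was the gene not past the threshold, and the median was -1.22, beside -0.09 over all genes.

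Between CO and TSW of RPMI8226, 37 of the 53 genes were lower in CO (17.5% of all genes tested), 9 by over 1.5-fold (2.39%), and 0 were higher with limma (10.1%), while 44 had an unadjusted p under 0.05. The median was -0.39, beside -0.04 over all genes. Without CO replicate 1 the count was 26 (5.87% of all genes), without CO replicate 2 it was 28 (9.85%), and without TSW replicate 2 it was 30 (10.6%).

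**Figure D1:**
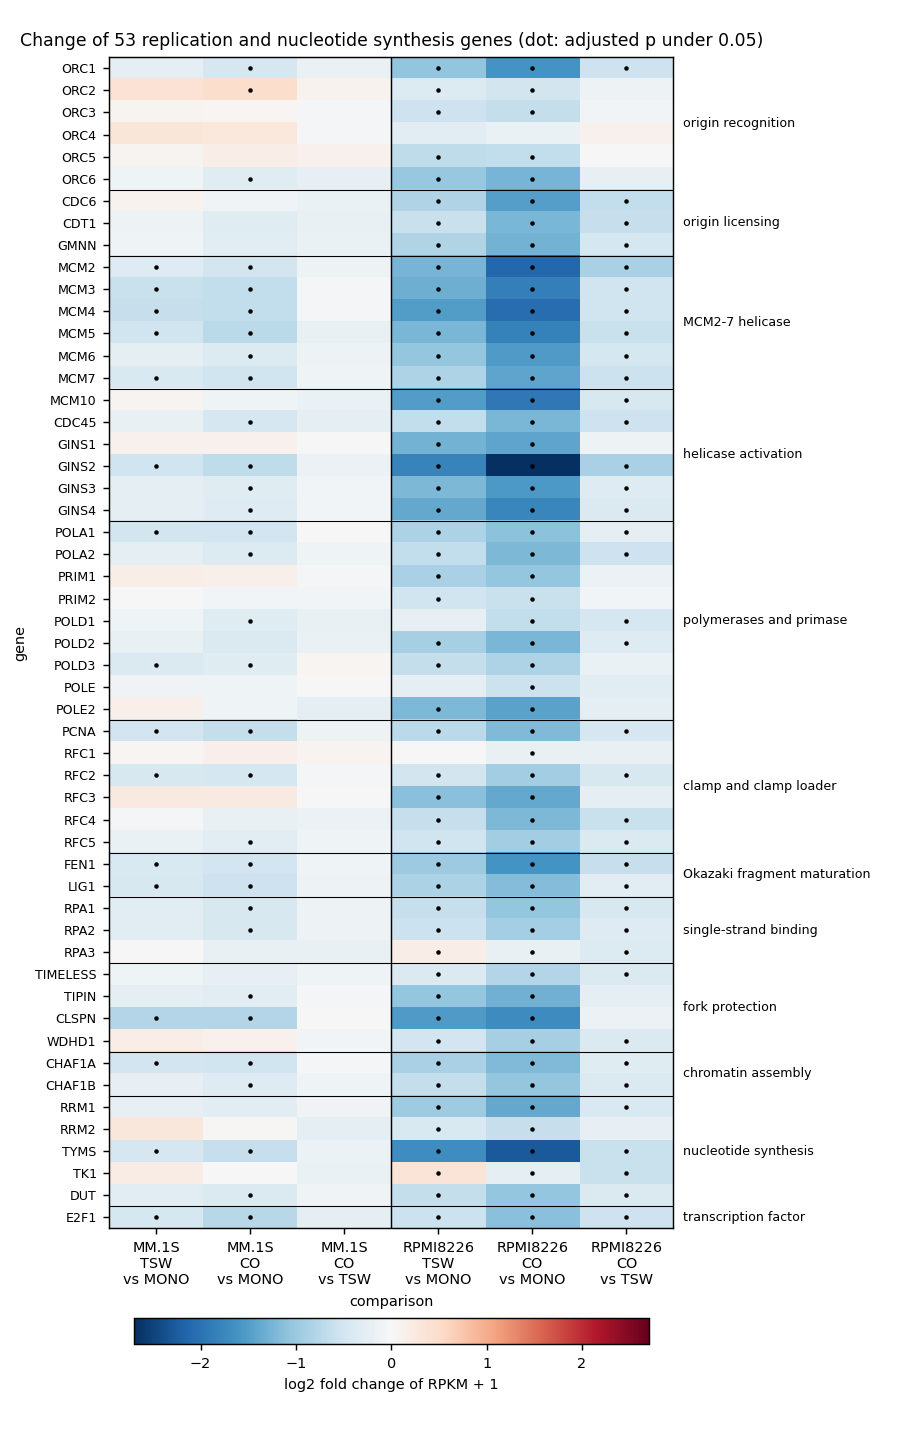
Log2 fold change of RPKM + 1 for each of the 53 genes (down the side, grouped by role) in the 3 comparisons of each line (across), with a dot where the adjusted p was under 0.05. The colours run down to -2.69 for GINS2 in RPMI8226 CO vs MONO, and the MM.1S CO vs TSW column holds 0 dots.

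Taken library by library, the shift was even within RPMI8226. The median difference of the 53 genes from the MONO mean was -0.74 in both TSW libraries, and it was -1.16 and -1.21 in the CO libraries. All 53 genes were below the MONO mean in both CO libraries. In MM.1S the medians were -0.22, -0.20 and -0.21 in TSW and -0.46, -0.24 and -0.33 in CO, while the MONO libraries themselves lay at 0.02, 0.08 and -0.08. The CO libraries of MM.1S thus spread more widely than its TSW libraries. Summed over the 53 genes, RPKM was 3071, 3143 and 2870 in the MM.1S MONO libraries, 2544, 2518 and 2638 in TSW and 2107, 2493 and 2401 in CO. In RPMI8226 the sums were 2682 and 2665 in MONO, 1524 and 1625 in TSW and 1138 and 1115 in CO, an order without overlap.

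**Figure D2:**
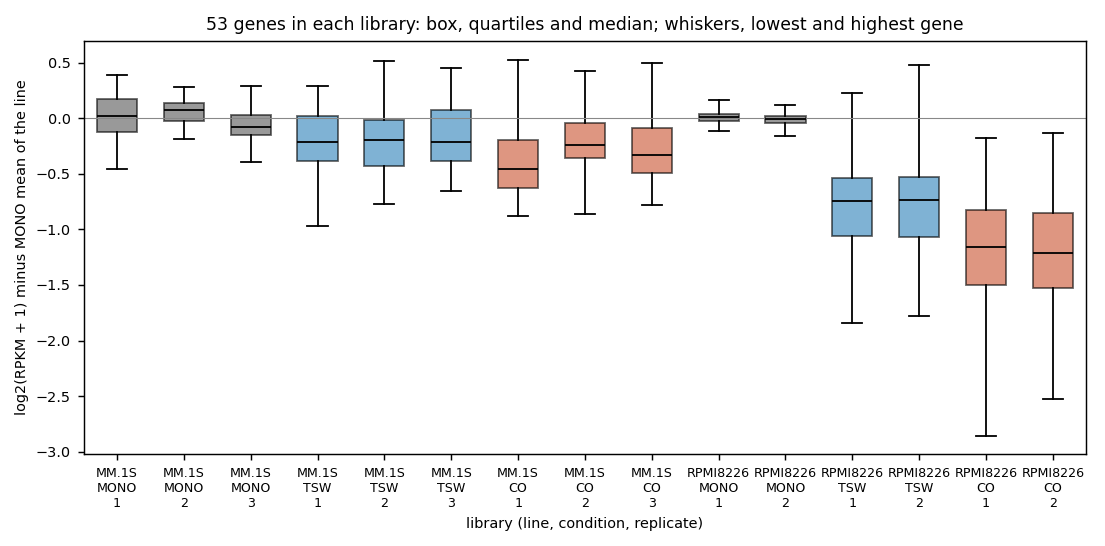
Difference of log2(RPKM + 1) from the MONO mean of the line for the 53 genes in each of the 15 libraries, with boxes from the lower to the upper quartile, a line at the median and whiskers at the lowest and highest gene. The medians of the CO libraries lie at -1.16 and -1.21 in RPMI8226 and between -0.46 and -0.24 in MM.1S.

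Since most of these genes moved together, their promoters were read for words that E2F and other cell cycle factors are known to bind. RefSeq promoter windows of 300 bases (build GRCh38.p14) were found for 47 of the 53 genes, and the first window listed for a gene was used. The words were TTTGGCGC, TTTCCCGC, TTTCGCGC and TTTGCCGC for E2F, CCAAT for NF-Y, and TTTGAA and TTCGAA for the CHR element, each on both strands. At least 1 E2F word was in 20 of the 47 windows (42.6%), beside 3.33% of all 27305 promoters and 5.72% of the promoters of genes tested. CCAAT was in 27 (57.4%), beside 35.7% of all promoters and 37.7% of those of genes tested, and a CHR word was in 2 (4.26%), beside 16.6% and 11%. The 2 E2F matches of MCM2 overlap each other on opposite strands. With every listed window of a gene counted, 23 of 47 genes had an E2F word (48.9%), beside 3.99% of all genes. A match only describes the sequence and does not show that a factor binds there. MCM4, MCM5, GINS4, POLD3, RPA2 and RPA3 had no window in the table.

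The promoters of 7 genes are printed. Of these, 6 have an E2F word and ORC4 has none. Genes without a word were lower as well in CO vs MONO of RPMI8226, where 41.7% of all genes were. All 20 genes with an E2F word and 26 of the 27 without one (all but ORC4) were called lower there. In MM.1S TSW vs MONO, 10 of the 20 and 3 of the 27 were called lower (12.9% of all genes). In its CO vs MONO, 13 of the 20 and 12 of the 27 were (15.05%). Without MONO replicate 1, MCM6 and GINS3 (with a word) and ORC1, RPA1 and RRM1 (without) were also lower in TSW vs MONO. E2F1 (with a word) was lost. In CO vs MONO, MCM10, TIMELESS and RRM1 were then also lower and POLD1 was lost, all without a word. The printed windows run 5′ to 3′ on the strand of the gene, and capitals mark E2F words and CCAAT on either strand. The MCM2 window is chr3:127598161-127598460 on the plus strand and that of GINS2 is chr16:85688905-85689204 on the minus strand. CLSPN was read at chr1:35769929-35770228 on the minus strand, and CDC6 at chr17:40287629-40287928 on the plus strand. TYMS was read at chr18:657403-657702 on the plus strand, E2F1 at chr20:33686336-33686635 on the minus strand, and ORC4 at chr2:148021502-148021801 on the minus strand.
MCM2: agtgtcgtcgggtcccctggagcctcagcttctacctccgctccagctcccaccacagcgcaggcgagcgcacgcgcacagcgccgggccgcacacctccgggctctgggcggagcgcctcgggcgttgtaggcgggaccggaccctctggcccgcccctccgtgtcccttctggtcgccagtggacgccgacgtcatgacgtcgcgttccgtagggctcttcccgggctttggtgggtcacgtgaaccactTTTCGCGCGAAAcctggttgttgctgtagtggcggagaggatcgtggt
GINS2: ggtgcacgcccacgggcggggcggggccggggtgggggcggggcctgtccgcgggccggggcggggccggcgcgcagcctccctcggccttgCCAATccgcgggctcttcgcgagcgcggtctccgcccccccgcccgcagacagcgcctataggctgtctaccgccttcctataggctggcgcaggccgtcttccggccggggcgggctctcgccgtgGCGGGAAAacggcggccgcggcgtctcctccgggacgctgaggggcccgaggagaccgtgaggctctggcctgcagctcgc
CLSPN: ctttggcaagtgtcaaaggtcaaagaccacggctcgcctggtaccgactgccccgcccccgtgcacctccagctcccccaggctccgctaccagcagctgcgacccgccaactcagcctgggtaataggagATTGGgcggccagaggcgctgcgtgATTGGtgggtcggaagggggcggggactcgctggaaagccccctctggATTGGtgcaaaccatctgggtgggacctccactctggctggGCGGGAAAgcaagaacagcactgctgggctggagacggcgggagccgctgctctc
CDC6: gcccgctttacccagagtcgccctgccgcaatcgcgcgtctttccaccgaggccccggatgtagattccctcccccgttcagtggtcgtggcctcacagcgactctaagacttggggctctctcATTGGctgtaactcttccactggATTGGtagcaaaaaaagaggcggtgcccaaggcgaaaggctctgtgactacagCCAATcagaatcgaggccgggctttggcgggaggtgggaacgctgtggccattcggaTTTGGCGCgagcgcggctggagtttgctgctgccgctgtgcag
TYMS: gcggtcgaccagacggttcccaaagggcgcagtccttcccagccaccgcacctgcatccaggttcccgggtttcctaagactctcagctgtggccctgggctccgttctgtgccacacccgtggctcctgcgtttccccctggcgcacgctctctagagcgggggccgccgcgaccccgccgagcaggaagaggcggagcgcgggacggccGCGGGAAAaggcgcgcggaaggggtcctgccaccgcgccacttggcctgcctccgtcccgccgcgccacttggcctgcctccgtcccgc
E2F1: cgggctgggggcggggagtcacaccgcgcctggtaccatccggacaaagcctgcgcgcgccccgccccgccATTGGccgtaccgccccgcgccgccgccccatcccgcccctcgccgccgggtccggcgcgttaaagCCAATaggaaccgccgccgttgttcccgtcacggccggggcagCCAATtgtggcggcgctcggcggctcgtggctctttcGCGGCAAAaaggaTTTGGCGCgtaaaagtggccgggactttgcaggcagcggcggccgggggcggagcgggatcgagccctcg
ORC4: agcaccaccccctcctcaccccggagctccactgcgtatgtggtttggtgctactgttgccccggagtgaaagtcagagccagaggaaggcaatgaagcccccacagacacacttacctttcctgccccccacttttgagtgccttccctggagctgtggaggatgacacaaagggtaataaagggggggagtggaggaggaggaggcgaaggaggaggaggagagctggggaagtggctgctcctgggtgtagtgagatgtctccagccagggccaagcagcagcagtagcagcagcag

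The genes are given by role below. Counts of genes lower stand beside the shares of all genes tested, which in TSW vs MONO, CO vs MONO and CO vs TSW were 38.04%, 41.7% and 17.5% in RPMI8226 and 12.9%, 15.05% and 0.0492% in MM.1S. The 6 ORC genes encode the origin recognition complex, the platform on which helicases are loaded. In RPMI8226, 5 of the 6 were lower in TSW and 5 in CO than in MONO, with CO vs MONO log2 fold changes from -1.62 (ORC1) to -0.19 (ORC4). In MM.1S the median of these genes was 0.08 in TSW and 0.12 in CO, both against MONO. There, 2 of the 6 (ORC1 and ORC6) were lower in CO than in MONO, with 1 without TSW replicate 3 and 0 without MONO replicate 2, MONO replicate 3, TSW replicate 2, CO replicate 1 or CO replicate 3. ORC2 (gene ID 4999, chr2:200908977-200963660), a core subunit, measured 7.96, 11.2 and 12.6 RPKM in the MONO libraries, 12.4, 15.3 and 14.2 RPKM in TSW and 15.4, 14.3 and 15.1 RPKM in CO of MM.1S. Every CO library was above every MONO library there, whereas the lowest TSW library was just under the highest MONO library. The CO vs MONO log2 fold change was 0.48 (SE 0.14, limma adjusted p = 0.0276), and it was 0.31 (limma adjusted p = 0.0272) without MONO replicate 1. The adjusted p from limma was 0.0888 without CO replicate 1, 0.0526 without CO replicate 2 and 0.0821 without CO replicate 3. TSW set against MONO gave 0.39 (SE 0.14, limma adjusted p = 0.0685), and the gene passed limma's threshold without MONO replicate 3 (adjusted p = 0.0197) and with a correction for GC content and gene length within libraries, added after the data were seen (0.0424).

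In RPMI8226, the ORC2 level was 17.0 and 16.2 RPKM in the MONO libraries, 13.7 and 11.8 RPKM in TSW and 11.7 and 11.2 RPKM in CO. All MONO libraries were above all TSW and CO libraries, and the TSW and CO libraries nearly met. The gene fell in TSW vs MONO by 0.36 (SE 0.09, limma adjusted p = 0.00471) on the log2 scale, and in CO vs MONO the log2 fold change was -0.50 (SE 0.09, limma adjusted p = 0.000528). CO did not differ from TSW past the threshold (-0.14, limma adjusted p = 0.277), but with the GC and length correction it did (-0.28, limma adjusted p = 0.0104). ORC4, another subunit, was chosen after its values were seen, as the gene not past the threshold in RPMI8226 CO vs MONO. It measured 3.53 and 3.21 RPKM in the MONO libraries, 3.12 and 2.02 RPKM in TSW and 2.69 and 2.98 RPKM in CO of RPMI8226, where MONO was highest and the TSW and CO libraries overlapped. Its CO vs MONO value was -0.19 (SE 0.14, limma adjusted p = 0.250). The TSW vs MONO value was -0.31 (SE 0.14, limma adjusted p = 0.0740), which passed with limma without TSW replicate 1 (adjusted p = 0.00522), with voom, a weighted fit to the read pairs (0.0423), and with the GC and length correction (0.0161). That correction also brought ORC4 past the threshold in CO vs MONO (limma adjusted p = 0.00272).

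CDC6 and CDT1 load the MCM helicase onto origins, and geminin (GMNN) blocks CDT1 so that no origin is licensed again in the same cycle. All 3 were lower in TSW and in CO than in MONO of RPMI8226, with medians of -0.81 and -1.29. In MM.1S limma called 0 of the 3 in TSW vs MONO, where 0 had an unadjusted p under 0.05. It also called 0 in CO vs MONO, where 1 had an unadjusted p under 0.05 and where leaving out MONO replicate 3 gave 1 gene lower. CDC6 (gene ID 990, chr17:40287879-40304657) had levels in MM.1S of 19.8, 23.4 and 21.9 RPKM in the MONO libraries, 23.5, 23.8 and 22.7 RPKM in TSW and 18.8, 21.1 and 21.3 RPKM in CO. MONO overlapped both other conditions, and every TSW library was above every CO library. No comparison passed in this line: the log2 fold changes were 0.10 for TSW vs MONO, -0.09 for CO vs MONO and -0.19 for CO vs TSW, with limma adjusted p values of 0.421, 0.498 and 0.998.

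RPMI8226 held more CDC6 RNA when grown alone, at 57.4 and 54.2 RPKM in the MONO libraries, 31.3 and 31.0 RPKM in TSW and 19.98 and 18.6 RPKM in CO. The conditions did not overlap, with MONO highest and CO lowest. From MONO to TSW the log2 fold change was -0.82 (SE 0.07, limma adjusted p = 4.21e-06), from MONO to CO -1.48 (SE 0.07, limma adjusted p = 4.65e-08), and from TSW to CO -0.66 (SE 0.07, limma adjusted p = 0.000287). The change of CDC6 differed between the lines in TSW vs MONO, by -0.92 (SE 0.12, limma adjusted p = 6.99e-05) on the log2 scale (RPMI8226 minus MM.1S), and in CO vs MONO, by -1.40 (SE 0.12, limma adjusted p = 1.23e-06). The difference in CO vs TSW was -0.47 (SE 0.12, limma adjusted p = 0.206), and limma gave 0.0370 for it without MM.1S MONO replicate 1. Its printed promoter holds 1 E2F word and 3 CCAAT words.

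MCM2 to MCM7 form the ring-shaped helicase that unwinds DNA at the fork. All 6 genes were lower in both TSW and CO than in MONO of RPMI8226, with medians of -1.24 and -1.84, and all 6 were lower again in CO than in TSW. MM.1S had all 6 lower in CO vs MONO, with log2 fold changes from -0.73 (MCM5) to -0.37 (MCM6). MCM6 (limma adjusted p = 0.0346) was not past the threshold in 7 of the 9 fits that left out 1 library, with adjusted p values of up to 0.127 (without CO replicate 1) in limma. In TSW vs MONO of MM.1S, 5 of the 6 (all but MCM6) were lower, and this count was 6 without MONO replicate 1, 2 without TSW replicate 2 and 3 without TSW replicate 1, TSW replicate 3 or MONO replicate 2.

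MCM2 (gene ID 4171, chr3:127598411-127622436) measured 139, 156 and 129 RPKM in the MONO libraries, 115, 102 and 114 RPKM in TSW and 91.4, 115 and 93.3 RPKM in CO of MM.1S. Each MONO library was above all others, and the TSW and CO libraries overlapped. The CO vs MONO log2 fold change was -0.50 (SE 0.12, limma adjusted p = 0.00913). For TSW vs MONO it was -0.35 (SE 0.12, limma adjusted p = 0.0427). That call was lost in limma without MONO replicate 2 (adjusted p = 0.122), TSW replicate 1 (0.0811), TSW replicate 2 (0.163), TSW replicate 3 (0.0918) or CO replicate 3 (0.0605), and with no expression filter (0.0631). MCM2 had 123 and 124 RPKM in the MONO libraries, 46.6 and 55.8 RPKM in TSW and 27.7 and 27.4 RPKM in CO of RPMI8226, and the 3 conditions did not overlap. Its CO mean was 22.3% of its MONO mean. Log2 fold changes in this line were -1.26 (SE 0.09, limma adjusted p = 6.2e-07) for TSW vs MONO, -2.13 (SE 0.09, limma adjusted p = 1.3e-08) for CO vs MONO and -0.87 (SE 0.09, limma adjusted p = 0.000153) for CO vs TSW. The lines differed by -0.91 (SE 0.16, limma adjusted p = 0.000724) in TSW vs MONO and by -1.63 (SE 0.16, limma adjusted p = 3.87e-06) in CO vs MONO. In CO vs TSW the difference was -0.72 (SE 0.16, limma adjusted p = 0.174), and with limma it passed without MM.1S MONO replicate 1 (adjusted p = 0.0427) and with the GC and length correction (0.0399).

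For MCM4 (gene ID 4173, chr8:47960941-47978160), the MM.1S libraries gave 130.1, 151 and 131 RPKM in the MONO libraries, 85.4, 84.7 and 94.4 RPKM in TSW and 81.6, 88.9 and 89.4 RPKM in CO. MONO lay above both other conditions, which overlapped. The log2 fold change was -0.63 (SE 0.09, limma adjusted p = 0.000731) in TSW vs MONO and -0.65 (SE 0.09, limma adjusted p = 0.000568) in CO vs MONO, and both calls held in every fit that left out 1 library. RPMI8226 gave 82.6 and 83.2 RPKM in the MONO libraries, 27.4 and 29.7 RPKM in TSW and 19.3 and 19.2 RPKM in CO. Here the conditions were apart, and the libraries of a condition lay close together. Fold changes (log2) were -1.51 (SE 0.07, limma adjusted p = 5.21e-08) in TSW vs MONO, -2.05 (SE 0.07, limma adjusted p = 5.11e-09) in CO vs MONO and -0.55 (SE 0.07, limma adjusted p = 0.000743) in CO vs TSW. The test between lines gave MCM4 a difference of -0.88 (SE 0.13, limma adjusted p = 0.000113) in TSW vs MONO and of -1.40 (SE 0.13, limma adjusted p = 1.31e-06) in CO vs MONO. The CO vs TSW difference, -0.52 (SE 0.13, limma adjusted p = 0.178), passed with limma without MM.1S MONO replicate 1 (adjusted p = 0.0370) and with the GC and length correction (0.04996).

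MCM5 (gene ID 4174, chr22:35400140-35455031) encodes a further subunit of the ring. MM.1S gave 97.7, 97.2 and 75.7 RPKM in the MONO libraries, 64.5, 57.3 and 63.5 RPKM in TSW and 48.5, 61.7 and 51.7 RPKM in CO. The MONO libraries were above the others, and TSW and CO overlapped. Its log2 fold change was -0.53 (SE 0.12, limma adjusted p = 0.0102) in TSW vs MONO and -0.73 (SE 0.12, limma adjusted p = 0.00173) in CO vs MONO. The TSW call was lost without TSW replicate 2 (limma adjusted p = 0.0520). RPMI8226 had 95.4 and 99.7 RPKM in the MONO libraries, 38.1 and 44.2 RPKM in TSW and 25.8 and 27.6 RPKM in CO, with no overlap between conditions. The fold changes were -1.23 (SE 0.08, limma adjusted p = 6.2e-07) for TSW vs MONO, -1.83 (SE 0.08, limma adjusted p = 2.91e-08) for CO vs MONO and -0.60 (SE 0.08, limma adjusted p = 0.000961) for CO vs TSW. The difference between the lines was -0.70 (SE 0.18, limma adjusted p = 0.00672) in TSW vs MONO and -1.101 (SE 0.18, limma adjusted p = 0.000191) in CO vs MONO.

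**Figure D3:**
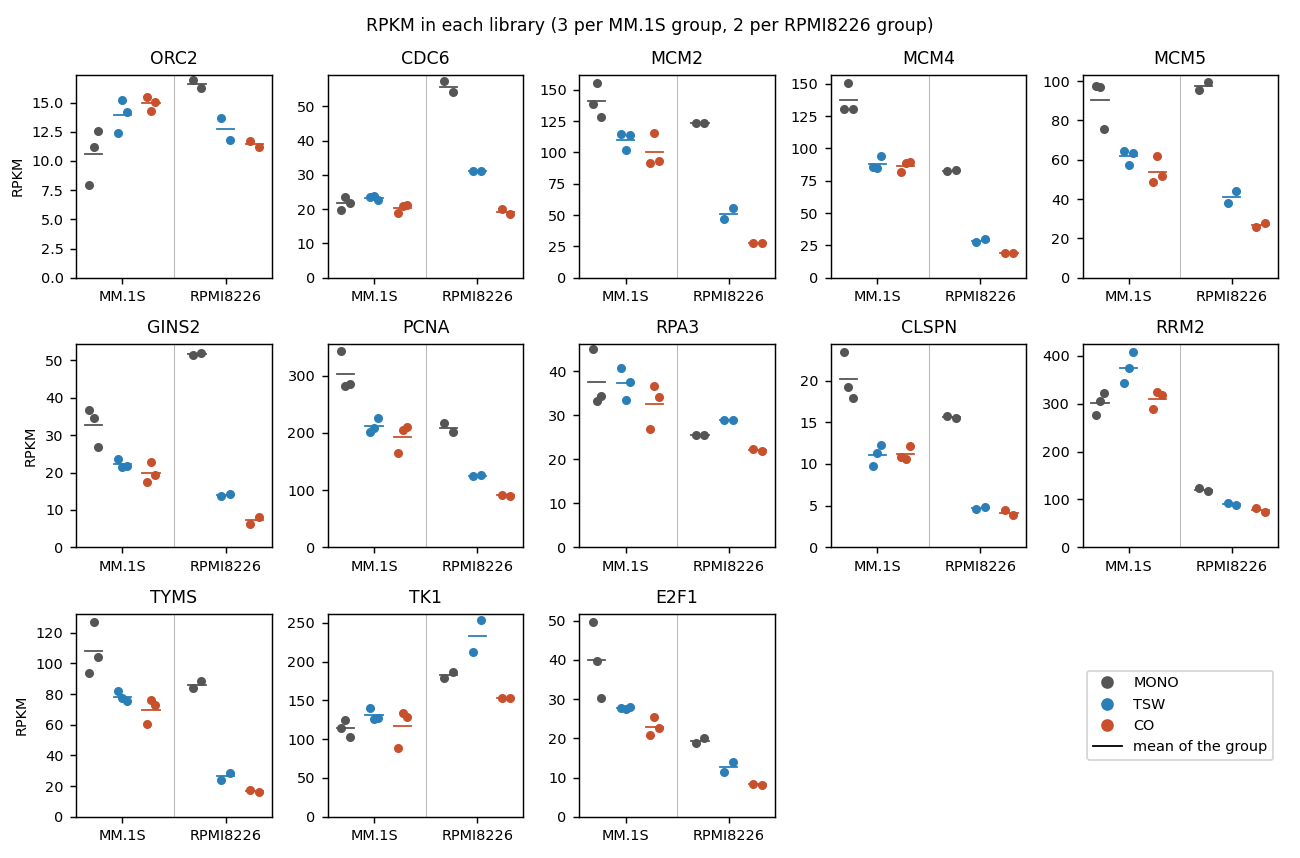
RPKM of 13 genes in each library (points) with the mean of each group (bars), MM.1S on the left and RPMI8226 on the right of each panel. In RPMI8226 the MONO points lie above the CO points for every gene shown, and TK1 and RPA3 are highest in TSW.

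CDC45 and the 4 GINS proteins join the MCM ring to make the active helicase, a step that also needs MCM10. In RPMI8226 all 6 genes were lower in TSW and in CO than in MONO, with medians of -1.33 and -1.65. In CO vs TSW of that line 5 (all but GINS1) were lower, and 2 without CO replicate 1. In MM.1S 4 of the 6 (CDC45, GINS2, GINS3 and GINS4) were lower in CO vs MONO, and the count was 5 without MONO replicate 1, 2 without MONO replicate 2 or CO replicate 1 and 1 without CO replicate 3. GINS2 (gene ID 51659, chr16:85676198-85688954) had MM.1S levels of 36.8, 34.7 and 26.8 RPKM in the MONO libraries, 23.5, 21.3 and 21.8 RPKM in TSW and 17.6, 22.8 and 19.2 RPKM in CO. The MONO libraries stood above all others, and TSW and CO overlapped. Its log2 fold change was -0.53 (SE 0.13, limma adjusted p = 0.0126) in TSW vs MONO and -0.69 (SE 0.13, limma adjusted p = 0.00301) in CO vs MONO. Without TSW replicate 2 the TSW call was lost (limma adjusted p = 0.0538).

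The fall of GINS2 in RPMI8226 was the largest of the 53 genes in each of the 3 comparisons of that line. It measured 51.3 and 52.1 RPKM in the MONO libraries, 13.7 and 14.4 RPKM in TSW and 6.28 and 8.16 RPKM in CO. The conditions did not overlap, and the CO mean was 13.97% of the MONO mean. Fold changes on the log2 scale were -1.81 (SE 0.10, limma adjusted p = 1.95e-07) in TSW vs MONO, -2.69 (SE 0.10, limma adjusted p = 1.03e-08) in CO vs MONO and -0.88 (SE 0.10, limma adjusted p = 0.000449) in CO vs TSW. The difference from MM.1S was -1.28 (SE 0.19, limma adjusted p = 0.000169) in TSW vs MONO and -2.001 (SE 0.19, limma adjusted p = 2.72e-06) in CO vs MONO.

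MCM10, which was chosen after its values were seen, had the most negative difference between the lines in TSW vs MONO. In MM.1S it measured 14.8, 23.5 and 22.1 RPKM in the MONO libraries, 20.2, 19.6 and 22.7 RPKM in TSW and 18.5, 19.2 and 17.3 RPKM in CO. MONO replicate 1 was the lowest library, MONO overlapped both other conditions, and every TSW library was above every CO library. In RPMI8226 it measured 32.1 and 31.5 RPKM in the MONO libraries, 10.4 and 10.6 RPKM in TSW and 7.08 and 8.06 RPKM in CO, without overlap. The log2 fold change in TSW vs MONO was 0.07 (SE 0.15, limma adjusted p = 0.760) in MM.1S and -1.51 (SE 0.08, limma adjusted p = 1.48e-07) in RPMI8226, a difference of -1.58 (SE 0.21, limma adjusted p = 5.3e-05). In CO vs MONO of MM.1S it was -0.11 (SE 0.15, limma adjusted p = 0.604), and without MONO replicate 1 the gene passed the threshold as lower (limma adjusted p = 0.0169). The CO vs MONO value in RPMI8226 was -1.94 (SE 0.08, limma adjusted p = 2.1e-08), and the difference was -1.83 (SE 0.21, limma adjusted p = 9.69e-06).

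DNA polymerase alpha with its primase starts each strand, and polymerases delta and epsilon extend the lagging and the leading strand. Of the 9 genes, 7 (all but POLD1 and POLE) were lower in TSW and 9 in CO than in MONO of RPMI8226, and the CO vs MONO log2 fold changes ran from -1.45 (POLE2) to -0.57 (POLE). In CO vs TSW of RPMI8226 4 (POLA1, POLA2, POLD1 and POLD2) were lower, and 2 without CO replicate 1 or CO replicate 2. In MM.1S 4 (POLA1, POLA2, POLD1 and POLD3) were lower in CO vs MONO. That count fell to 0 without CO replicate 1, 1 without CO replicate 3 or MONO replicate 2, 2 without TSW replicate 2 and 3 without MONO replicate 1. Their median in MM.1S was -0.11 in TSW and -0.32 in CO, both against MONO.

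The sliding clamp PCNA holds polymerases on DNA, and RFC1 to RFC5 load it. In RPMI8226 5 of these 6 genes (all but RFC1) were lower in TSW and 6 in CO than in MONO. The CO vs MONO call of RFC1 (-0.21) was lost in limma with no expression filter (adjusted p = 0.0666) and with eBayes without a trend (0.0566). With median-of-ratios scaling (libraries set level by their median ratio to a reference) RFC1 had -0.11 (limma adjusted p = 0.287). RFC1 had -0.14 without RPMI8226 MONO replicate 1, -0.19 without its CO replicate 1 and -0.23 without its CO replicate 2. Each of these fits left 1 library in a condition. In MM.1S PCNA, RFC2 and RFC5 were lower in CO vs MONO (1 without CO replicate 1). PCNA (gene ID 5111, chr20:5114953-5126622) measured 342, 282 and 285 RPKM in the MONO libraries, 202, 209 and 225 RPKM in TSW and 164, 205 and 211 RPKM in CO of MM.1S. The 3 MONO libraries were above all the rest, and TSW and CO overlapped. The log2 fold change was -0.51 (SE 0.12, limma adjusted p = 0.0120) in TSW vs MONO and -0.65 (SE 0.12, limma adjusted p = 0.00317) in CO vs MONO. For TSW vs MONO, limma gave an adjusted p of 0.0524 without TSW replicate 1 and 0.0507 without TSW replicate 2.

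RPMI8226 libraries held PCNA at 216 and 201 RPKM in the MONO libraries, 124 and 126 RPKM in TSW and 91.7 and 90.0 RPKM in CO. MONO, TSW and CO followed each other downward without overlap. The log2 fold changes were -0.74 (SE 0.07, limma adjusted p = 4.19e-06) in TSW vs MONO, -1.19 (SE 0.07, limma adjusted p = 9.31e-08) in CO vs MONO and -0.46 (SE 0.07, limma adjusted p = 0.00114) in CO vs TSW. Between the lines, the TSW vs MONO change of PCNA did not differ past the threshold (-0.23, SE 0.16, limma adjusted p = 0.297), and the CO vs MONO change did (-0.54, SE 0.16, limma adjusted p = 0.0152). The latter was not past limma's threshold without RPMI8226 MONO replicate 1 (adjusted p = 0.0672), without RPMI8226 CO replicate 2 (0.0519) or with median-of-ratios scaling, which sets libraries level by their median ratio to a reference (0.0640). The 4 named pseudogenes of PCNA in the annotation leave the placing of some of its reads uncertain.

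FEN1 and LIG1 finish Okazaki fragments by trimming flaps and sealing nicks. Both were lower in TSW and CO than in MONO of RPMI8226, with CO vs MONO values of -1.61 and -1.17. In MM.1S both were also lower in CO vs MONO, at -0.52 and -0.57, in every fit that left out 1 library. RPA1 to RPA3 coat single-stranded DNA. RPA1 and RPA2 were lower in both comparisons with MONO in RPMI8226. In MM.1S they were lower in CO vs MONO, with 0 of the 3 RPA genes called without CO replicate 1.

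RPA3 (gene ID 6119, chr7:7636518-7718607), the smallest subunit, followed another course. In MM.1S the libraries read 45.1, 33.2 and 34.5 RPKM in the MONO libraries, 40.7, 33.5 and 37.7 RPKM in TSW and 26.8, 36.8 and 34.1 RPKM in CO. The conditions overlapped, with CO replicate 1 lowest. No comparison passed, with log2 fold changes of -0.00, -0.20 and -0.20 for TSW vs MONO, CO vs MONO and CO vs TSW, and limma adjusted p values of 0.998, 0.307 and 0.998. In RPMI8226 it read 25.4 and 25.6 RPKM in the MONO libraries, 28.8 and 29.0 RPKM in TSW and 22.5 and 22.0 RPKM in CO. Every TSW library was above MONO, and every CO library was below it. It was higher in TSW than in MONO, at 0.17 (SE 0.07, limma adjusted p = 0.0468), and lower in CO than in MONO, at -0.19 (SE 0.07, limma adjusted p = 0.0284). CO was also lower than TSW, at -0.37 (SE 0.07, limma adjusted p = 0.00445).

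The changes of RPA3 against MONO in RPMI8226 were small, and most fits that left out a library lost them. For TSW vs MONO, limma's adjusted p was 0.175 without MONO replicate 1, 0.151 without MONO replicate 2, 0.0616 without TSW replicate 1, 0.0750 without TSW replicate 2, 0.0729 without CO replicate 1 and 0.0758 without CO replicate 2. That call was also lost with limma when eBayes had no trend of spread with level (adjusted p = 0.0665) and with voom (0.0902). For CO vs MONO, limma's adjusted p was 0.107 without MONO replicate 1, 0.127 without MONO replicate 2, 0.0804 without CO replicate 1 and 0.130 without CO replicate 2. The CO call did not hold in limma with median-of-ratios scaling (adjusted p = 0.320), voom (0.0646) or the GC and length correction (0.820). RPA3 overlaps the gene UMAD1 and has named pseudogenes, and the strandedness of the libraries is not given, so its level is less certain than that of genes without either.

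TIMELESS, TIPIN, claspin (CLSPN) and WDHD1 keep the fork stable and tie it to the checkpoint. All 4 were lower in TSW and CO than in MONO of RPMI8226, with medians of -0.78 and -1.103. In MM.1S 2 (TIPIN and CLSPN) were lower in CO vs MONO, and 3 without MONO replicate 1 and 1 without CO replicate 1, CO replicate 2 or CO replicate 3. CLSPN (gene ID 63967, chr1:35720213-35769978) measured 23.4, 19.2 and 17.9 RPKM in the MONO libraries, 9.71, 11.3 and 12.3 RPKM in TSW and 10.9, 10.6 and 12.1 RPKM in CO of MM.1S. All TSW and CO libraries were under all MONO libraries, and TSW and CO overlapped. Its log2 fold changes, -0.80 (SE 0.12, limma adjusted p = 0.000791) in TSW vs MONO and -0.79 (SE 0.12, limma adjusted p = 0.000878) in CO vs MONO, were the most negative of the 53 genes in MM.1S, and both calls held in every fit that left out 1 library. In RPMI8226 CLSPN measured 15.7 and 15.5 RPKM in the MONO libraries, 4.64 and 4.84 RPKM in TSW and 4.44 and 3.87 RPKM in CO. MONO was far above both others, while TSW and CO lay close without overlap. The log2 fold change was -1.53 (SE 0.09, limma adjusted p = 2.56e-07) in TSW vs MONO and -1.69 (SE 0.09, limma adjusted p = 8.71e-08) in CO vs MONO. CO vs TSW did not pass (-0.16, SE 0.09, limma adjusted p = 0.226), except with the GC and length correction (-0.26, limma adjusted p = 0.0492). The lines differed by -0.73 (SE 0.17, limma adjusted p = 0.00375) in TSW vs MONO and -0.90 (SE 0.17, limma adjusted p = 0.000654) in CO vs MONO.

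CHAF1A and CHAF1B bring new histones to replicated DNA. Both were lower in TSW and CO than in MONO of RPMI8226, at -1.20 and -1.04 in CO vs MONO. In MM.1S both were lower in CO vs MONO, at -0.55 and -0.35, with 1 of them called without MONO replicate 2, CO replicate 1 or CO replicate 3. In CO vs TSW of RPMI8226 both were lower, but 0 without TSW replicate 2, CO replicate 1 or CO replicate 2.

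RRM1 and RRM2 are the subunits of ribonucleotide reductase, TYMS makes thymidylate, TK1 salvages thymidine and DUT removes dUTP. In RPMI8226 4 of the 5 genes were lower and TK1 was higher in TSW vs MONO, and all 5 were lower in CO vs MONO. In MM.1S 2 (TYMS and DUT) were lower in CO vs MONO, and 3 without MONO replicate 1 and 1 without any of the 3 TSW libraries, CO replicate 1 or CO replicate 2. TYMS (gene ID 7298, chr18:657653-673578) gave 93.6, 127 and 104 RPKM in the MONO libraries, 81.8, 77.1 and 75.4 RPKM in TSW and 60.2, 76.3 and 72.7 RPKM in CO in MM.1S. The MONO libraries were highest, and TSW and CO overlapped. Its log2 fold change was -0.62 (SE 0.13, limma adjusted p = 0.00443) in CO vs MONO and -0.45 (SE 0.13, limma adjusted p = 0.0220) in TSW vs MONO. For the latter, limma's adjusted p was 0.0677 without MONO replicate 2, 0.0506 without TSW replicate 1, 0.0747 without TSW replicate 2 and 0.0802 without TSW replicate 3, and 0.0669 with the GC and length correction.

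In RPMI8226 TYMS fell steeply, from a MONO mean of 86.1 RPKM to 19.7% of it in CO. The libraries gave 83.7 and 88.6 RPKM in the MONO libraries, 23.8 and 28.8 RPKM in TSW and 17.7 and 16.2 RPKM in CO. There was no overlap between conditions. Values on the log2 scale were -1.68 (SE 0.09, limma adjusted p = 1.61e-07) in TSW vs MONO, -2.28 (SE 0.09, limma adjusted p = 1.61e-08) in CO vs MONO and -0.60 (SE 0.09, limma adjusted p = 0.00186) in CO vs TSW. Between the lines, TYMS differed by -1.23 (SE 0.18, limma adjusted p = 0.000155) in TSW vs MONO and -1.66 (SE 0.18, limma adjusted p = 8.33e-06) in CO vs MONO. TYMS overlaps the gene ENOSF1, so some of its reads cannot be placed with certainty.

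RRM2 (gene ID 6241, chr2:10122568-10211010) was the most abundant of the 53 genes in the MM.1S TSW and CO libraries. MM.1S had 277, 306 and 323 RPKM in the MONO libraries, 344, 375 and 408 RPKM in TSW and 289, 325 and 318 RPKM in CO. The TSW libraries were the highest, above all MONO and CO libraries, which overlapped. The TSW vs MONO value, 0.31 (SE 0.11, limma adjusted p = 0.0535), did not pass. It did with limma without MONO replicate 3 (adjusted p = 0.0422), with voom (0.0446), with eBayes without a trend (0.0442) and with the GC and length correction (0.0120). CO vs MONO was 0.04 (SE 0.11, limma adjusted p = 0.789), and CO vs TSW was -0.27 (SE 0.11, limma adjusted p = 0.998). RPMI8226 had 123 and 117 RPKM in the MONO libraries, 92.1 and 88.3 RPKM in TSW and 82.2 and 73.2 RPKM in CO, a decline without overlap. Log2 fold changes there were -0.41 (SE 0.07, limma adjusted p = 0.000703) in TSW vs MONO, -0.62 (SE 0.07, limma adjusted p = 2.81e-05) in CO vs MONO and -0.21 (SE 0.07, limma adjusted p = 0.0568) in CO vs TSW. The last passed in limma over genes with a mean of at least 5 RPKM (adjusted p = 0.0482), with voom (0.0433) and with the GC and length correction (0.0422). The difference between lines was -0.72 (SE 0.14, limma adjusted p = 0.00133) in TSW vs MONO and -0.66 (SE 0.14, limma adjusted p = 0.00181) in CO vs MONO.

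TK1 (gene ID 7083, chr17:78174079-78187204) was the most abundant of the 53 genes in RPMI8226 TSW and CO. It read 178 and 186 RPKM in the MONO libraries, 213 and 254 RPKM in TSW and 153 and 153 RPKM in CO of that line. TSW was above MONO and MONO above CO, without overlap. The rise in TSW vs MONO was 0.35 (SE 0.08, limma adjusted p = 0.00371), and it was 0.22 (limma adjusted p = 0.0143) without TSW replicate 2. Its CO vs MONO value was -0.25 (SE 0.08, limma adjusted p = 0.01996). That call was lost in each fit without a MONO or CO library: limma's adjusted p was 0.0537 without MONO replicate 1, 0.117 without MONO replicate 2, 0.0847 without CO replicate 1 and 0.0754 without CO replicate 2. Other settings that lost it were median-of-ratios scaling (limma adjusted p = 0.165), the GC and length correction (0.299) and no expression filter (0.0651). CO vs TSW was -0.60 (SE 0.08, limma adjusted p = 0.000961).

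In MM.1S TK1 read 115, 125 and 103 RPKM in the MONO libraries, 139.6, 126 and 127 RPKM in TSW and 89.1, 134 and 129 RPKM in CO. The TSW libraries were above the MONO libraries, while CO reached from below MONO into the range of TSW. With limma, no comparison passed: the log2 fold changes were 0.20, 0.02 and -0.18 in TSW vs MONO, CO vs MONO and CO vs TSW, with adjusted p values of 0.336, 0.930 and 0.998. The lines did not differ past the threshold in TSW vs MONO (0.15, SE 0.21, limma adjusted p = 0.596) or in CO vs MONO (-0.27, SE 0.21, limma adjusted p = 0.316). Without MM.1S CO replicate 1, the CO vs MONO difference passed (limma adjusted p = 0.0242).

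E2F1 (gene ID 1869, chr20:33675477-33686385), the transcription factor of the 53 genes, measured 49.7, 39.6 and 30.3 RPKM in the MONO libraries, 27.8, 27.4 and 28.0 RPKM in TSW and 21.0, 25.3 and 22.6 RPKM in CO of MM.1S. MONO was above TSW and TSW above CO, without overlap, and MONO spread most. Log2 fold changes were -0.75 (SE 0.15, limma adjusted p = 0.00423) in CO vs MONO and -0.48 (SE 0.15, limma adjusted p = 0.0358) in TSW vs MONO. In the latter, limma's adjusted p was 0.0504 without MONO replicate 1, 0.0755 without MONO replicate 2, 0.0924 without TSW replicate 1, 0.102 without TSW replicate 2, 0.0916 without TSW replicate 3 and 0.0563 without CO replicate 3, it was 0.0697 with no expression filter, and the log2 fold change was -0.31 without MONO replicate 1. CO vs TSW gave -0.27 (SE 0.15, limma adjusted p = 0.998). RPMI8226 had 18.7 and 20.01 RPKM in the MONO libraries, 11.5 and 14.1 RPKM in TSW and 8.42 and 8.14 RPKM in CO, also without overlap. The log2 fold change was -0.57 (SE 0.10, limma adjusted p = 0.000548) in TSW vs MONO, -1.13 (SE 0.10, limma adjusted p = 2.95e-06) in CO vs MONO and -0.56 (SE 0.10, limma adjusted p = 0.00332) in CO vs TSW. The lines did not differ past the threshold in TSW vs MONO (-0.09, SE 0.22, limma adjusted p = 0.771) or CO vs MONO (-0.39, SE 0.22, limma adjusted p = 0.164), but in CO vs MONO they did without MM.1S MONO replicate 1 (limma adjusted p = 0.00963) and with the GC and length correction (0.0160).

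Nearly all of the 53 genes were lower in RPMI8226 (88.7% for TSW and 98.1% for CO, each against MONO), so an overlap with the genes lower in MM.1S is expected. In TSW vs MONO, 16 genes were lower in both lines, which is 100% of the 16 in MM.1S and 34.0% of the 47 in RPMI8226 (20 without MM.1S MONO replicate 1 and 4 without MM.1S TSW replicate 2). In CO vs MONO, 30 were lower in both, which is 100% of the 30 in MM.1S and 57.7% of the 52 in RPMI8226 (32 without MM.1S MONO replicate 1 and 14 without MM.1S CO replicate 1). The test of the difference gave 37 genes with a more negative TSW vs MONO change in RPMI8226 (23.4% of all genes tested) and 0 with a more positive one (15.1%) with limma, while 39 had an unadjusted p under 0.05. The median difference was -0.64, beside -0.12 over all genes. In CO vs MONO the counts were 47 (28.5%) and 0 (15.9%), with 48 at an unadjusted p under 0.05 and a median difference of -0.89, beside -0.14. Leaving out 1 library gave 26 to 40 genes for TSW vs MONO and 42 to 49 for CO vs MONO, with the highest count of each without MM.1S MONO replicate 1.

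For CO vs TSW the test of the difference gave 0 genes in either direction with limma (0.0958% and 0.0426% of all genes), with 17 of the 53 genes and 906 of all genes at an unadjusted p under 0.05. Without MM.1S MONO replicate 1, 3 genes (MCM2, MCM4 and CDC6) were more negative in RPMI8226. Across the 53 genes, log2 fold changes in the lines had a Pearson r of 0.478 (Spearman rho 0.459) in TSW vs MONO, 0.592 (0.539) in CO vs MONO and 0.554 (0.563) in CO vs TSW. These values describe genes, which are not independent replicates.

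**Figure D4:**
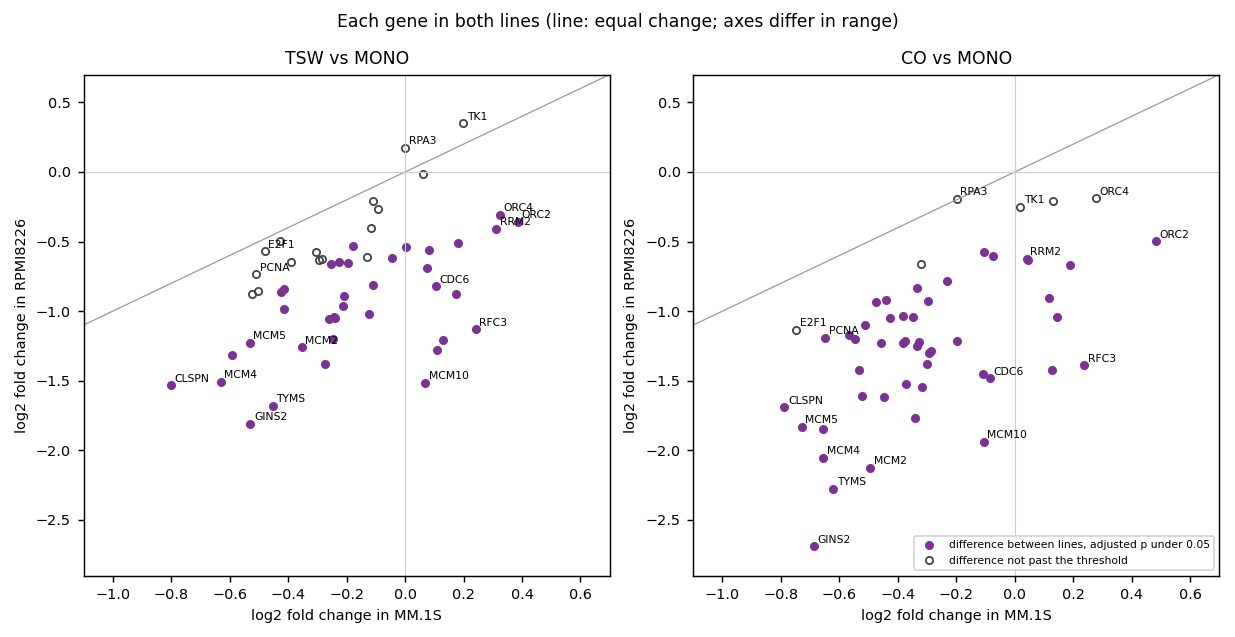
Log2 fold change of each of the 53 genes in MM.1S (horizontal) and in RPMI8226 (vertical), for TSW vs MONO and CO vs MONO, with filled points where the difference between the lines had an adjusted p under 0.05 and a line of equal change. For CO vs MONO, 47 points are filled, and 52 of the 53 lie below the line of equal change.

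Other genes of the pathway, from lists not trimmed by how they moved, were read in the same fit. Of 16 further origin firing and checkpoint genes, 15 were lower in TSW and 15 in CO than in MONO of RPMI8226 (beside 38.04% and 41.7% of all genes tested), with a CO vs MONO median of -0.66. In MM.1S 2 (12.5%) were lower in CO vs MONO, beside 15.05% of all genes, and the count was 6 without MONO replicate 1 (17.9% of all genes) and 1 without MONO replicate 2, CO replicate 1 or CO replicate 3. With limma 0 were higher, with 4 at an unadjusted p under 0.05 in either direction and 2 higher without MONO replicate 3. The lower genes were DONSON (-0.55, SE 0.08, limma adjusted p = 0.000756) and RECQL4 (-0.41, SE 0.12, limma adjusted p = 0.0307), both needed for firing. RECQL4 was the gene lost: limma's adjusted p was 0.0636 without MONO replicate 2, 0.101 without CO replicate 1 and 0.107 without CO replicate 3. DONSON measured 36.2, 37.2 and 35.3 RPKM in the MONO libraries, 27.0, 30.0 and 30.1 RPKM in TSW and 24.7, 25.2 and 23.6 RPKM in CO of MM.1S, and MONO lay above the other conditions. In RPMI8226 the most negative were DTL (-1.26, SE 0.07, limma adjusted p = 1.58e-07), which targets CDT1 for destruction, and TICRR (-1.24, SE 0.09, limma adjusted p = 9.78e-07), which helps load CDC45.

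The list of further fork and histone chaperone genes has 20 members. In RPMI8226 18 were lower in TSW (38.04% of all genes) and 19 in CO (41.7%) than in MONO, and 1 was higher in each (beside 29.03% and 30.3% of all genes tested higher). UHRF1, which carries DNA methylation over to new strands, measured 14.8 and 16.4 RPKM in the MONO libraries, 1.96 and 2.71 RPKM in TSW and 1.97 and 1.74 RPKM in CO of that line. Its MONO libraries were far above the rest, and TSW and CO overlapped. The CO vs MONO log2 fold change was -2.54 (SE 0.12, limma adjusted p = 4e-08), and the nuclease gene EXO1 had -1.82 (SE 0.07, limma adjusted p = 1.49e-08). POLD4, the small subunit of polymerase delta, was the gene that rose (0.90, SE 0.11, limma adjusted p = 2.36e-05). In MM.1S 8 (40.0%) were lower in CO vs MONO, beside 15.05% of all genes (10 without MONO replicate 1), among them UHRF1 (-1.13, SE 0.11, limma adjusted p = 2.44e-05) and POLE4 (-1.12, SE 0.15, limma adjusted p = 0.000398), and with limma 0 were higher, where 12 had an unadjusted p under 0.05 in either direction and where leaving out MONO replicate 3 gave 1 higher.

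Of 27 further nucleotide synthesis genes tested in RPMI8226, 20 (74.1%) were lower and 3 (CMPK1, MTHFD2 and SHMT2) were higher (11.1%) in CO vs MONO, beside 41.7% and 30.3% of all genes. NME1, a nucleoside diphosphate kinase, measured 140.3 and 144 RPKM in the MONO libraries, 71.3 and 78.4 RPKM in TSW and 38.6 and 44.1 RPKM in CO of RPMI8226, a decline without overlap. Its CO vs MONO log2 fold change was -1.76 (SE 0.08, limma adjusted p = 3.24e-08), and that of the thymidylate kinase gene DTYMK was -2.08 (SE 0.08, limma adjusted p = 8.98e-09). CMPK1, a pyrimidine kinase, was higher (0.65, SE 0.12, limma adjusted p = 0.000701). MTHFD2, an enzyme of mitochondrial folate metabolism, was also higher (0.58, SE 0.10, limma adjusted p = 0.000583). In MM.1S, 5 of 28 were lower (ADSL, IMPDH1, IMPDH2, PRPS2 and DTYMK) and 5 higher (SHMT2, MTHFD2, CTPS2, PPAT and PRPS1) in CO vs MONO. Either count is 17.9% of the list, near the 15.05% lower and 16.2% higher of all genes. The lower count was 6 without MONO replicate 1, 3 without CO replicate 1 or any of the TSW libraries and 2 without MONO replicate 2 or CO replicate 3, and the higher count was 3 without CO replicate 1 or CO replicate 2 and 2 without CO replicate 3. The most negative were IMPDH2 (-0.60, SE 0.11, limma adjusted p = 0.00216), for guanine nucleotides, and DTYMK (-0.55, SE 0.12, limma adjusted p = 0.00764).

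The most positive in MM.1S were both of mitochondrial folate metabolism. MTHFD2 measured 105, 121 and 131 RPKM in the MONO libraries, 226, 226 and 234 RPKM in TSW and 216, 213 and 224 RPKM in CO, and all TSW and CO libraries were above all MONO libraries. Its CO vs MONO log2 fold change was 0.88 (SE 0.10, limma adjusted p = 0.000101), and that of SHMT2 was 0.53 (SE 0.10, limma adjusted p = 0.00230). Among 18 genes of E2F, RB and S phase kinases, 11 (61.1%) were lower and 3 (RB1, RBL2 and CDK2) higher (16.7%) in CO vs MONO of RPMI8226, beside 41.7% and 30.3% of all genes. CDC25A, a phosphatase that activates CDK2, had -2.23 (SE 0.08, limma adjusted p = 6.34e-09) there, and SKP2, which marks CDK inhibitors for destruction, had -1.92 (SE 0.09, limma adjusted p = 3.16e-08). RB1, the retinoblastoma gene, measured 18.7 and 16.5 RPKM in the MONO libraries, 35.5 and 28.9 RPKM in TSW and 43.99 and 41.2 RPKM in CO of RPMI8226, an increase without overlap. Its CO vs MONO value was 1.23 (SE 0.10, limma adjusted p = 1.95e-06), and that of its relative RBL2 was 0.74 (SE 0.07, limma adjusted p = 5.65e-06). In MM.1S 4 (22.2%) were lower in CO vs MONO, beside 15.05% of all genes (8 without MONO replicate 1, beside 17.9%), namely E2F2, CCNE1, SKP2 (-0.66, SE 0.10, limma adjusted p = 0.00106) and CDC25A (-0.63, SE 0.11, limma adjusted p = 0.00197). None of the 18 was higher with limma, where 8 had an unadjusted p under 0.05 in either direction and where leaving out MONO replicate 3 gave 2 higher.

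G2/M genes act after replication. In RPMI8226, 16 of 19 (84.2%) were lower in CO vs MONO, beside 41.7% of all genes, and with limma 0 were higher (30.3% of all genes), where 16 had an unadjusted p under 0.05, and the median was -0.69. CDC20 had -1.77 (SE 0.07, limma adjusted p = 1.15e-08) and CCNB1 had -1.17 (SE 0.07, limma adjusted p = 2.55e-07). In MM.1S, 7 of 20 (35.0%) were higher in CO vs MONO, beside 16.2% of all genes, and 0 lower with limma (15.05% of all genes), where 10 had an unadjusted p under 0.05, and the median was 0.44. This count was 14 without MONO replicate 3, 3 without CO replicate 1 and 4 without CO replicate 3, and without MONO replicate 1 there was 1 gene lower. BUB1 measured 50.1, 75.6 and 86.1 RPKM in the MONO libraries, 111, 114 and 107 RPKM in TSW and 117, 113 and 113 RPKM in CO, with all MONO libraries below the others and MONO replicate 1 lowest. It had a CO vs MONO log2 fold change of 0.72 (SE 0.16, limma adjusted p = 0.00716), and AURKA had 0.70 (SE 0.14, limma adjusted p = 0.00360). In the test of the difference between lines, 17 of the 19 genes were more negative in RPMI8226 in CO vs MONO, beside 28.5% of all genes, with a median difference of -1.02.

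**Figure D5:**
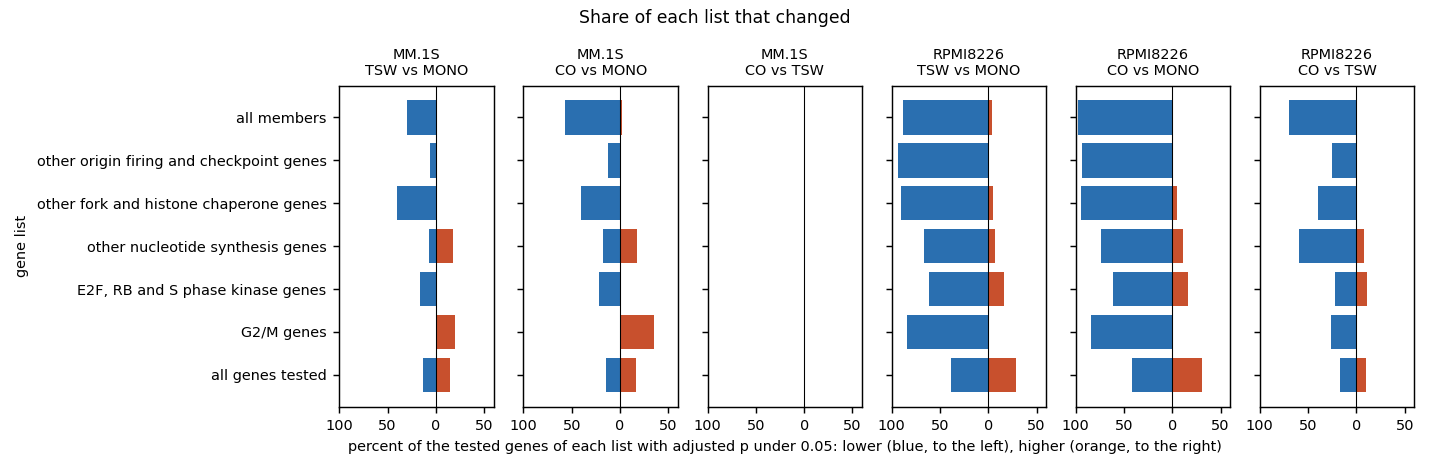
Percent of the tested genes in each list with an adjusted p under 0.05 in each comparison, lower to the left and higher to the right, for the 53 genes (all members), the 5 other lists and all genes tested. Of the 53 genes, 52 were lower in CO vs MONO of RPMI8226 and 30 in that of MM.1S, while 7 of 20 G2/M genes were higher in MM.1S and 16 of 19 lower in RPMI8226.

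Genes with an E2F word in the promoter window were also compared with those without one, as a description. In CO vs MONO of RPMI8226, the median log2 fold change was -1.42 over the 20 genes with a word and -1.04 over the 27 without. In MM.1S it was -0.44 and -0.29. For TSW vs MONO the medians were -0.95 and -0.63 in RPMI8226 and -0.30 and -0.12 in MM.1S. In CO vs TSW they lay closer together, at -0.47 and -0.39 in RPMI8226 and -0.13 and -0.11 in MM.1S. Of 15 G2/M genes with a window, 11 had a CHR word (73.3%) and 1 had an E2F word (6.67%). An E2F word was in 5 of 14 windows of the E2F, RB and S phase kinase genes (35.7%). It was in 4 of 17 of the further fork and histone chaperone genes (23.5%) and 3 of 13 of the further origin firing and checkpoint genes (23.1%). Of the further nucleotide synthesis genes, 2 of 24 had one (8.33%).

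Markers of the cell types were read in the same libraries. All 10 plasma cell markers had at least 1 RPKM in each MM.1S library, and 9 of 10 did in each RPMI8226 library, where SLAMF7 lay between 0.018 and 0.104 RPKM. The most abundant was JCHAIN, at 1924 to 4102 RPKM in MM.1S and 1366 to 2927 RPKM in RPMI8226. Summed RPKM of the plasma cell list was 5936, 5008 and 5251 in MM.1S MONO, 4086, 3965 and 3953 in TSW and 3746, 3907 and 3584 in CO. In RPMI8226 the sums were 2486 and 2400.5 in MONO, 4456 and 4274 in TSW and 4540.1 and 4462 in CO. Without JCHAIN the sums were 1834, 1606 and 1496 in MONO, 1952, 1999.3 and 1827 in TSW and 1726, 1897 and 1659.7 in CO of MM.1S, and 1021 and 1035 in MONO, 1871 and 1922 in TSW and 1613 and 1646 in CO of RPMI8226. Of the list, limma called 3 lower and 3 higher of 10 in CO vs MONO of MM.1S (15.05% and 16.2% of all genes tested), and 2 lower and 7 higher of 9 in RPMI8226 (41.7% and 30.3%).

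A list of 25 stromal genes stood for HS5 RNA. In MM.1S its summed RPKM was 32.8, 37.8 and 37.9 in MONO, 24.3, 23.9 and 25.0 in TSW, and 169.7, 186 and 158 in CO. The CO libraries were thus far above the rest. Its most abundant gene in CO was MMP1, at 44.5, 46.9 and 41.0 RPKM, while MMP1 was listed at 0 in every MONO and TSW library. POSTN was listed at 0 in every library. In MM.1S, 6, 5 and 5 of the 25 genes had at least 1 RPKM in the MONO libraries, 5 in each TSW library, and 16, 19 and 18 in CO. No count of calls is given for this list, because many of its genes met the expression filter through their CO levels. In RPMI8226 FN1, which the line itself expresses, made up most of the sums, which were 4049 and 4374 in MONO, 1708 and 1994 in TSW and 2124 and 2327 in CO. Without FN1 they were 59.4 and 63.8 in MONO, 29.8 and 31.9 in TSW and 117 and 158 in CO. MMP1 there was 35.1 and 53.2 RPKM in CO and listed at 0 elsewhere, and COL6A3 and POSTN were listed at 0 in both CO libraries. At least 1 RPKM was reached by 5 of the 25 genes in both MONO libraries, 6 and 5 in TSW and 14 and 15 in CO. Whether HS5 RNA made up part of the CO values of the 53 genes was not tested.

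In the annotation, 12 of the 53 genes have named pseudogenes and 10 overlap another gene of the tables, among them ORC4, GINS2, TYMS and RPA3, and 35 have neither. Where reads could come from such copies or neighbours, levels are less certain.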

How the data were processed

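The 53 genes and the lists beside them were chosen with earlier results of these data known. The tests, the thresholds, the rule for named genes and the alternatives other than the GC and length correction were fixed before the data were examined. The authors aligned paired reads to hg38 with Subread, counted read pairs on RefSeq genes with featureCounts and made RPKM, and deposited log2 values of RPKM + 1 to which an offset of 0.0001 had been added, where the added 1 and the offset, which no text describes, were worked out from the tables. The plan had assumed RPKM. Libraries and conditions were taken from the names of the 15 value columns, and 0 columns were left out.

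After removal of the offset, libraries were set level by their relative depth. For each gene, the largest step of which its levels in the 15 libraries were whole multiples stood for 1 read pair. The read pairs this gave were within 0.05 of a whole number for 100% of genes not listed at 0, a share that the choice of step largely sets. The gene lengths that follow from the steps were whole for 100% of 10710 genes in both tables. Each library was scaled on its own, so the difference between the lines was tested across tables. Tests used limma 3.58.1 in R 4.3.3 (lmFit, contrasts.fit, eBayes with a trend) on log2(RPKM + 1), with 1 fit per line and 1 fit of both lines for the differences, over genes with a mean of at least 1 RPKM. The procedure was tested on simulated data. Tables and figures used Python 3.11.15, numpy 2.4.6, pandas 2.3.3 and matplotlib 3.10.9.

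Values in every library are printed for MCM5, PCNA, CDC6, E2F1, RRM2 and TYMS and, in each comparison, for the 2 largest falls and the 2 largest rises among genes with an adjusted p under 0.05. Other genes are given by role, and those named outside the rule were chosen after their values were seen. In each further list the rule named the 2 largest falls and the 2 largest rises in CO vs MONO of either line among genes past the threshold. The list of further nucleotide synthesis genes was shortened by 1 gene after the data were seen, for a reason other than its values.

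Settings changed 1 at a time were the pseudocount (0.1), the expression filter (none, or a mean of at least 5 RPKM), scaling (median of ratios), replicate number as a block, voom on the read pairs, eBayes without a trend and the libraries used (each left out in turn). The GC and length correction was a joint loess surface on GC content and log2 gene length (span 0.3). It was fitted to each library's deviations from the mean over libraries and subtracted. GC was known for 99.5% of the genes tested, and the correction was added after the data were seen. Before it, library deviations had Spearman correlations with GC content of 0.38, 0.32 and -0.15 in MM.1S MONO. They were 0.16, 0.01 and -0.38 in its TSW and -0.47, -0.02 and -0.43 in its CO libraries. In RPMI8226 they were 0.04 and 0.15 in MONO, -0.07 and 0.41 in TSW and -0.29 and -0.24 in CO. Promoter windows were planned 1 base longer than the 300 bases the RefSeq table holds. Strand use in counting is not given, so genes that overlap another gene or have named pseudogenes are less certain.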

Additional observations from a re-analysis of the deposited data

Results flagged for a closer look

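The test of the difference between the lines (RPMI8226 minus MM.1S, limma) is what drew attention to the following results. In TSW vs MONO, 37 of the 53 genes had an adjusted p under 0.05, all with the more negative change in RPMI8226 (23.4% of all genes tested), and in CO vs MONO 47 did (28.5%). The median differences of the 53 genes were -0.64 and -0.89, beside -0.12 and -0.14 over all genes. The lines also differ in the number of libraries, 3 against 2 per condition, and were deposited as separate tables, and what made their changes differ was not tested.

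Among the genes that the rule for named genes printed by library, the flagged differences in TSW vs MONO were -0.70 for MCM5, -0.92 for CDC6, -0.72 for RRM2, -1.23 for TYMS and -0.73 for CLSPN. They were -0.88 for MCM4, -0.75 for ORC2, -1.28 for GINS2 and -0.91 for MCM2. MCM10, chosen after its values were seen, had a more negative difference than these and is given above for both comparisons. With limma, the ORC2 difference had an adjusted p of 0.0528 without RPMI8226 TSW replicate 2.

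For CO vs MONO, the flagged differences of genes named by the rule were -1.101 for MCM5, -0.54 for PCNA, -1.40 for CDC6, -0.66 for RRM2 and -1.66 for TYMS. CLSPN had -0.90, MCM4 -1.40, ORC2 -0.98, GINS2 -2.001 and MCM2 -1.63. ORC2 and RRM2 lay above 0 in MM.1S and below 0 in RPMI8226. In MM.1S, however, RRM2 was not past the threshold, and the ORC2 call was lost when any single CO library was left out. The PCNA difference had a limma adjusted p of 0.0672 without RPMI8226 MONO replicate 1, 0.0519 without RPMI8226 CO replicate 2 and 0.0640 with median-of-ratios scaling.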

How the results depend on the processing

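No value that passed the threshold in the reported fit or under an alternative changed direction. Of 4911 values of single genes under the alternatives, 4661 kept their side of the threshold, 187 were no longer past it, 63 came to pass it, and 0 reversed. Direction was not compared for values that passed the threshold in neither fit. Calls were counted as held if they stood under every alternative that tested the gene. MM.1S kept 4 of 16 for TSW vs MONO and 13 of 31 for CO vs MONO. RPMI8226 kept 48 of 49, 49 of 52 and 23 of 37 for TSW vs MONO, CO vs MONO and CO vs TSW. The filter at a mean of at least 5 RPKM left some of the 53 genes untested. With it, RPMI8226 had 44 genes lower for TSW vs MONO and 48 for CO vs MONO. In CO vs TSW of MM.1S, 53 of 53 genes stayed outside the threshold under every alternative that tested them.

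The median log2 fold changes of RPMI8226 moved by more than the spread between libraries (SD 0.0227), and those of MM.1S did not (SD 0.0716). In TSW vs MONO, CO vs MONO and CO vs TSW of RPMI8226 they were -0.838, -1.26 and -0.431 with a pseudocount of 0.1, -0.73, -1.11 and -0.370 with median-of-ratios scaling, -0.84, -1.27 and -0.433 with voom, and -0.74, -1.096 and -0.367 with the GC and length correction. Median-of-ratios scaling shifted the median of all genes in RPMI8226 by 0.07 and 0.09 in the comparisons with MONO. Causes of these moves were not tested further.

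With replicate number as a block, 1 gene (RRM2) was higher in TSW vs MONO of MM.1S, against 0 without the block. Genes lower with the block were 15 against 16 there (MCM2 was not called), 29 against 30 in CO vs MONO of MM.1S (DUT and POLD1 not called, RRM1 called), 50 against 47 in TSW vs MONO of RPMI8226 (ORC4, POLD1 and POLE called) and 40 against 37 in its CO vs TSW (ORC6, TIPIN and RRM2 called). The deviations of libraries with the same number had correlations of -0.38 to 0.286 in MM.1S and 0.164 to 0.271 in RPMI8226, where only 2 such pairs exist, and nothing shows that equal numbers mark a pair. The count of genes higher in TSW vs MONO of MM.1S was also 1 (RRM2) with voom and with eBayes without a trend, and 3 (RRM2, ORC2 and PRIM1) with the GC and length correction. In TSW vs MONO of RPMI8226, genes higher were 1 with voom and 1 with eBayes without a trend, against 2. The GC and length correction gave 2 genes higher in CO vs MONO of MM.1S, against 1, and 2 genes with a difference between lines in CO vs TSW, against 0. The cause was not tested.

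Leaving out each library in turn gave 4 to 20 genes lower and 0 to 3 higher in TSW vs MONO of MM.1S (median -0.25 to -0.16), 14 to 32 lower and 0 to 1 higher in CO vs MONO (-0.40 to -0.30) and 0 in CO vs TSW (-0.17 to -0.05). In RPMI8226 it gave 47 to 48 lower and 1 higher in TSW vs MONO (median -0.81 to -0.74), 49 to 52 lower in CO vs MONO (-1.22 to -1.16, with 0 higher) and 26 to 38 lower in CO vs TSW (-0.42 to -0.37). The condition then has 1 library in RPMI8226, which is assumed to vary like the others. Differences between lines passed for 26 to 40 genes in TSW vs MONO, 42 to 49 in CO vs MONO and 0 to 3 in CO vs TSW. Depth limits the genes with the fewest read pairs most: POLE2, CHAF1B and GINS2 had 63, 107 and 121 in their lowest library, which was RPMI8226 CO replicate 1 for each.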
